A study of Mus musculus with 4 samples.

Results

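The genes described here are 9 effector genes of cytotoxic and innate lymphoid cells: Gzma, Gzmb, Gzmc, Prf1, Nkg7, Ccl5, Cd7, Tyrobp and Fcer1g. They were taken by exact symbol from the deposited gene tables, which list 33114 named genes, and all 9 were found in each of the 4 libraries. The libraries are polyadenylated RNA of sorted thymocytes, and every animal group carried the same Rag1-/- genotype, in which antigen receptor genes cannot be rearranged and mature T and B cells do not form. The strain C57BL/6 (B6) was sampled at the ages of 4 and 7 weeks and the strain NOD at 4 and 6.5 weeks, with 1 library per strain and age. No library had wild-type Rag1 and no strain and age had a replicate. The labels give neither the sort markers nor the number or sex of the animals behind a library. Depth recovered from the tables ran from 17040000 reads (B6 week 4) to 24090000 reads (NOD week 6.5). B6 week 7 stood somewhat apart: over genes at 1 RPKM or above in every library, the median log2 deviation from the mean of a gene was -0.236 there and 0.135 in B6 week 4. Levels are RPKM, which relates the reads of a gene to its length in kilobases and to sequencing depth, so genes can be compared with each other per length. Reads of both strains were aligned to the same genome build, mm9. Whether NOD and B6 reads align to it equally well was not tested, which limits every comparison of the strains.

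Cytotoxic lymphocytes kill with secretory granules that hold granzymes, which are serine proteases, and perforin, which opens the target membrane so that granzymes can enter. Nkg7 is a membrane protein of these granules, and Ccl5 is a chemokine that attracts T cells and monocytes. Tyrobp (DAP12) and Fcer1g (the common Fc receptor gamma chain) are small membrane adaptors whose cytoplasmic ITAM motifs carry signals for receptors that have none of their own, in natural killer (NK), myeloid and mast cells. Cd7 is an immunoglobulin-family surface protein of T and NK lineage cells and their progenitors. Granzyme transcripts are also known from early thymocytes, so their presence in a thymocyte library is not by itself a sign of a mature killer cell.

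The 3 granzyme genes of this set had 3 different patterns, and the 250 bases before their transcription starts are shown because Gzmb and Gzmc are neighbours in the same granzyme cluster while Gzma lies on another chromosome. Sequences are from RefSeq on build GRCm38.p6, which is not the build used for the reads, and they stand 5′ to 3′ on the strand of the gene. Capitals mark matches on either strand to 5 motifs: TGTGGT (Runx), TGANTCA (AP-1), TGACGT (the core of the cyclic AMP response element, CRE), CANNTG (E-box) and GGTGTGA (T-box core). Gzma is at chr13:113100982-113101231, Gzmb at chr14:56262335-56262584 and Gzmc at chr14:56234658-56234907, all on the minus strand.
Gzma: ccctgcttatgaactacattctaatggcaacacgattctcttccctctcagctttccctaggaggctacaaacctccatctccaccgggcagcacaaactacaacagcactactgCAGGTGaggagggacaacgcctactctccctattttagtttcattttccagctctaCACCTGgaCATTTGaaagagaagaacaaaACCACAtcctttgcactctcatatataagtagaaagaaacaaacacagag
Gzmb: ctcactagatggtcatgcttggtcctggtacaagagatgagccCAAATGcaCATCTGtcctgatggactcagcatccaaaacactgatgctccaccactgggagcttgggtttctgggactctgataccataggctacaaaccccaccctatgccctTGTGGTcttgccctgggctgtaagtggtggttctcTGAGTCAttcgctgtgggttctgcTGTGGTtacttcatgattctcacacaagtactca
Gzmc: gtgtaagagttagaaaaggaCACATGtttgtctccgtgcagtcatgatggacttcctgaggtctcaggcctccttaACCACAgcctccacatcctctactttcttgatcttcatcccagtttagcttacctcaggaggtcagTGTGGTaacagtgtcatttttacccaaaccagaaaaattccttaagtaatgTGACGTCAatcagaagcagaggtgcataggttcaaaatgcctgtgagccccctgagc

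The Gzmb window held 2 Runx matches, the AP-1 match TGAGTCA and 2 E-box matches. The Gzma window held 1 Runx match and 3 E-box matches and no AP-1 match. The Gzmc window held 2 Runx matches, 1 E-box match and 2 CRE core matches that overlap as TGACGTCA. Among the 32851 windows of this length in the RefSeq table, 14.0% held a Runx match, 6.75% an AP-1 match, 6.47% a CRE core, 66.2% an E-box and 3.33% a T-box core. Windows were found for 6 of the 9 genes. The Nkg7 window held the T-box core GGTGTGA 13 bases before the start, 1 Runx match and 2 E-box matches, the Prf1 window 1 Runx, 1 CRE core and 4 E-box matches, and the Fcer1g window 1 E-box match. These are matches of letters, and binding was not measured.

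Gzma was the most abundant of the 9 genes in every library and Gzmb the gene that differed most. Gzma, a tryptase, had an RPKM of 86.38 and 85.35 in B6 (weeks 4 and 7) and of 75.83 and 53.99 in NOD (weeks 4 and 6.5). It was thus lowest in the older NOD library, and both NOD values lay under both B6 values. These levels rest on between 1142 and 1590 reads, and placed Gzma above 97.2% of all named genes or more in each library. From NOD week 4 to week 6.5 the ratio for Gzma was 0.712 (95% interval for counting error 0.656 to 0.774), which did not reach the 2-fold change used to call a gene. Between the B6 libraries it was 0.988 (0.918 to 1.06). Gzma overlaps Cdc20b in RefSeq, and Cdc20b had an RPKM between 0.03 and 0.13.

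Gzmb, the protease that cleaves caspases, had an RPKM of 0.41 and 0.53 in B6 and of 0.41 and 7.67 in NOD, the younger library first. Only the last library stood apart, with 262 reads of Gzmb against 10, 16 and 10 in the others. The level was 18.8-fold higher in NOD week 6.5 than in NOD week 4 (10 to 39.6) and 14.4-fold higher than in B6 week 7 (8.72 to 25.6). At week 4 the strains had a Gzmb ratio of 0.987 (0.369 to 2.64), an interval too wide at this depth to tell equal levels from a 2-fold difference. On the scale of log2(RPKM + 1), the Gzmb difference between the NOD libraries was 2.62, the 8th highest of 8646 genes with an RPKM of 5 or more in either library. Gzmb met this minimum only through NOD week 6.5.

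Gzmc, a granzyme of activated killer cells, was listed at 0 in all 4 libraries. With 3 reads as the limit that a count of 0 allows, its RPKM was at most 0.197, 0.158, 0.194 and 0.139 in the order B6 week 4 and 7, NOD week 4 and 6.5, which is used for all series of 4 values that follow. The same held for 5 of the 7 other granzymes, Gzmd, Gzme, Gzmf, Gzmg and Gzmn, each listed at 0 throughout. Gzmk was at 0.08 in B6 week 4 and 0 elsewhere, and Gzmm at 0.87, 0.51, 0.72 and 0.42. The high Gzmb value therefore had no counterpart among its neighbours in the cluster, since the nearest listed genes, Gzmc, Gzmf and Atp12a, were all at 0. Reads of Gzmb and Gzmc can be told apart over most of their length: 18 of the 1405 windows of 32 bases in the Gzmb transcript (1.28%) also occur in Gzmc, and none in other genes of GENCODE M21. For Gzmc, 14.3% of windows occur in another granzyme transcript. The deposited share of reads mapping to more than 1 place was at most 4.0% for each of the 9 genes. It was above 0 only in NOD week 6.5, at 4.0% for Gzma and 3.0% for Gzmb, Nkg7 and Cd7. The reason for this difference between the libraries was not tested.

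Prf1, the perforin gene, was near the detection limit in every library, with an RPKM of 0.14, 0.03, 0.33 and 0.22 in the same order. These values are 5, 1, 12 and 11 reads, and Prf1 was not highest where Gzmb was: its ratio between the NOD libraries was 0.657 (0.263 to 1.63). In NOD week 6.5 there were 35.3 times as many Gzmb as Prf1 reads per length (19.4 to 71.6), and in NOD week 4 1.24 times as many (0.478 to 3.12). The Prf1 ratio of NOD week 6.5 to B6 week 7 was 9.69 with a wide interval (1.41 to 417), since B6 week 7 had a single read.

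Nkg7 was the second most abundant of the 9 genes in every library. Its RPKM was 58.0 and 46.44 in the younger and older B6 library and 32.07 and 34.19 in the younger and older NOD library, from 450 to 804 reads. As for Gzma, both NOD values were under both B6 values, but unlike Gzma the NOD libraries were close to each other, with a ratio of 1.07 (0.945 to 1.20). At week 4 the Nkg7 level in NOD was 0.553 of that in B6 (0.491 to 0.621), and at the later age 0.737 (0.664 to 0.817). The part of unequal alignment of the strains in these ratios was not tested.

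**Figure D1:**
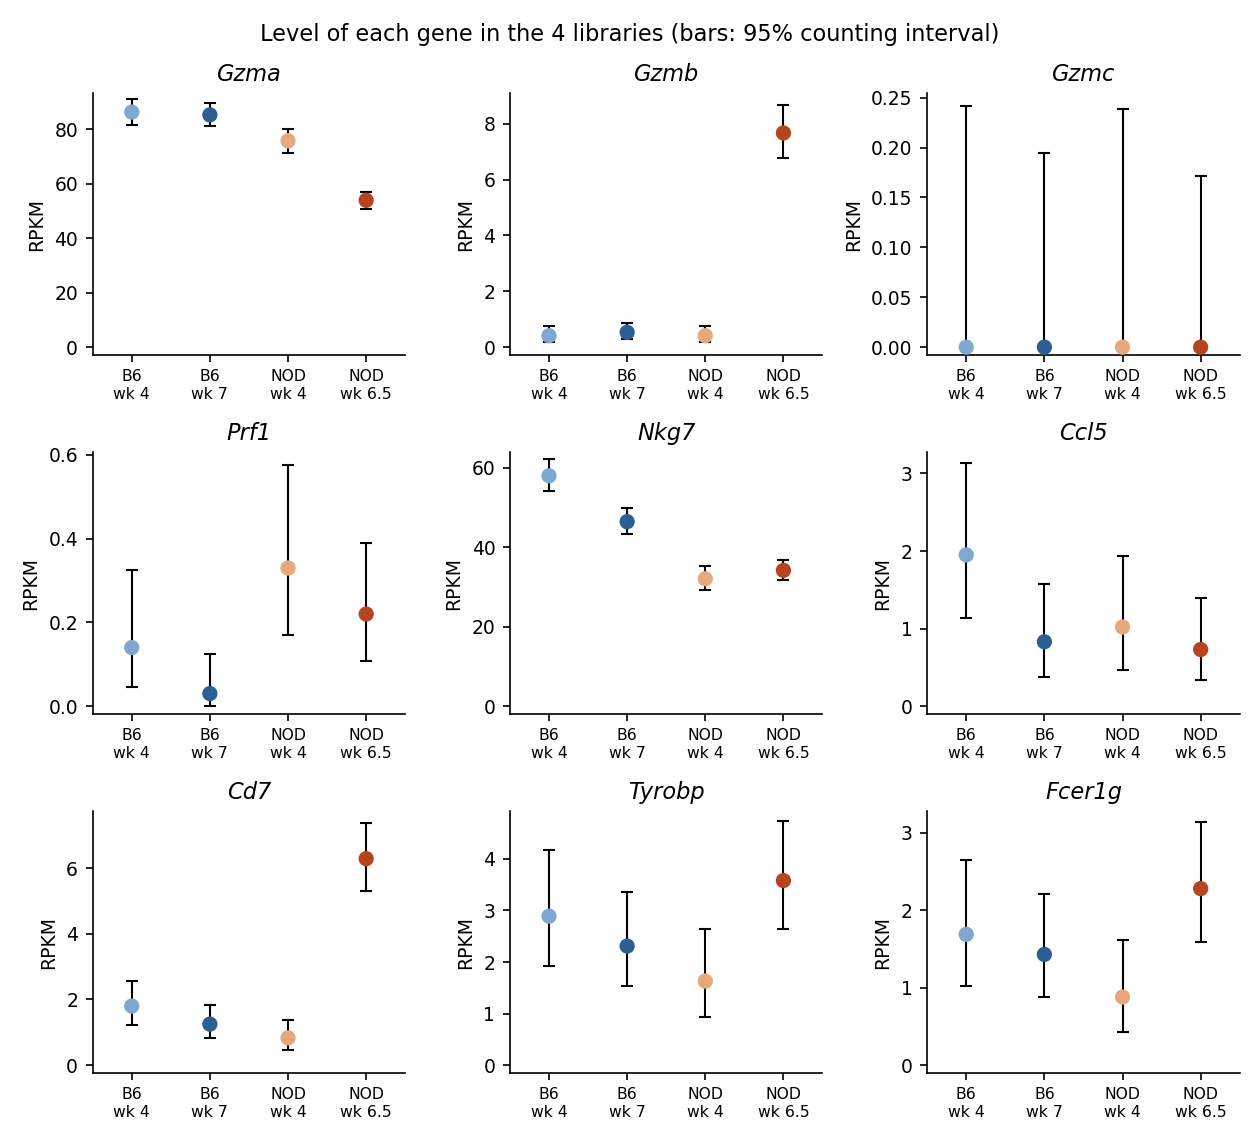
RPKM of the 9 effector genes in the 4 libraries, 1 point per library with its 95% Poisson interval for counting error, on a linear axis of its own for each gene. Gzmb and Cd7 stand apart in NOD week 6.5 at 7.67 and 6.29, Gzma is lowest there at 53.99, and Gzmc is listed at 0 throughout.

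Ccl5 was low, with an RPKM of 1.95 and 0.83 in B6 and of 1.02 and 0.73 in NOD, the younger library first. It was highest in the younger B6 library, and the other 3 rest on 9 reads each. The Ccl5 ratio between the NOD libraries was 0.716 (0.252 to 2.04).

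Cd7 had an RPKM of 1.80 at week 4 and 1.25 at week 7 in B6, and of 0.83 at week 4 and 6.29 at week 6.5 in NOD. The older NOD library was the highest and the younger the lowest, with 148 and 14 reads. Cd7 was 7.57-fold higher in NOD week 6.5 than in NOD week 4 (4.37 to 14.2) and 5.01-fold higher than in B6 week 7 (3.29 to 7.93). At week 4 the order was the other way, with NOD at 0.461 of B6 (0.226 to 0.896). An antisense gene, Gm11775, overlaps Cd7 in GENCODE M21 and shares 9.78% of the windows of 32 bases of the Cd7 transcript, and without strand its reads there cannot be told from those of Cd7. Sectm1a and Sectm1b, which encode ligands of Cd7, were listed at 0 in all libraries.

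The adaptors Tyrobp and Fcer1g had like profiles at low levels. Tyrobp was at an RPKM of 2.89 and 2.31 in B6 and of 1.63 and 3.58 in NOD, the younger library first. Fcer1g was at 1.69 and 1.43 in B6 and at 0.88 and 2.28 in NOD. Each was lowest in NOD week 4 and highest in NOD week 6.5, with the B6 libraries between. Between the NOD libraries the ratio was 2.19 for Tyrobp (1.23 to 4.13, from 49 and 16 reads) and 2.58 for Fcer1g (1.25 to 5.83, from 36 and 10 reads). Against B6 week 7 the ratios of NOD week 6.5 were 1.54 (0.950 to 2.55) and 1.59 (0.894 to 2.89), so that at this depth an equal level was inside both intervals. The Tyrobp level per length was 1.70, 1.62, 1.85 and 1.57 times that of Fcer1g in the order of libraries above, and the 4 intervals overlapped.

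Between NOD week 4 and NOD week 6.5, 4 of the 9 genes had an RPKM of 5 or more in either library, and 2 of these, Gzmb and Cd7, were 2-fold higher on the scale of RPKM + 1. Over all 8646 genes that met this minimum, 0.682% were 2-fold higher and 0.139% were 2-fold lower. No effector gene was 2-fold lower, and Gzma and Nkg7 were within 2-fold. The minimum lets in Gzmb and Cd7 only through the library in which they are high, so this count is a description of these 2 libraries. The log2 differences were 2.62 for Gzmb and 1.99 for Cd7, then 0.803 for Fcer1g, 0.80 for Tyrobp, 0.0896 for Nkg7, -0.125 for Prf1, -0.224 for Ccl5 and -0.483 for Gzma. Their median with Gzmc was 0.0896, and that of all genes that met the minimum was -0.057. Over the 9028 genes with an RPKM of 5 or more in any library, 27 (0.299%) were 2-fold higher in NOD week 6.5 than in each of the other 3, and Gzmb and Cd7 were among these 27.

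Between the B6 libraries only Gzma and Nkg7 met the minimum and neither was 2-fold apart, where 0.14% of 8582 genes were 2-fold higher and 3.82% lower at week 7. B6 week 7 was low in general: the median log2 difference of all these genes was -0.379. The B6 age differences of Gzma, Nkg7, Tyrobp and Fcer1g, at -0.0171, -0.315, -0.233 and -0.147, turned positive when libraries were rescaled to a common median, to 0.35, 0.0492, 0.0347 and 0.0801. Those of Cd7 and Ccl5 were -0.316 and -0.689, and -0.0944 and -0.489 after rescaling. Directions between the B6 ages are therefore not given for these genes, while in NOD rescaling left Gzma at -0.437, Gzmb at 2.62 and Cd7 at 2.

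**Figure D2:**
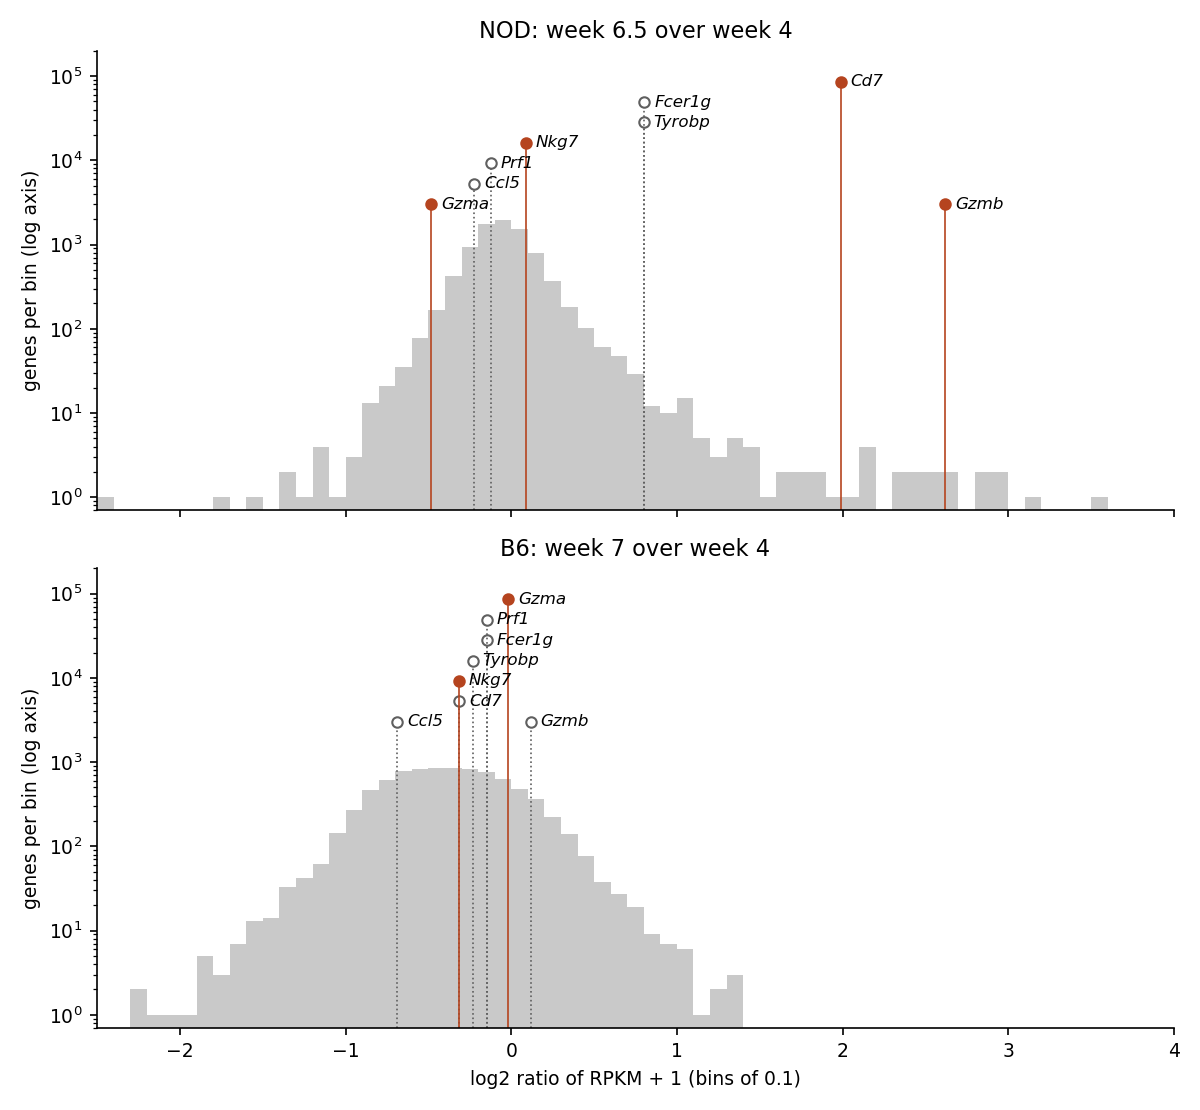
Histograms of the log2 ratio of RPKM + 1 between the ages of each strain, over genes with an RPKM of 5 or more in either library, with a log axis of gene numbers. Filled markers are effector genes that met this minimum and open markers those that did not, and marker height has no meaning. Gzmb at 2.62 and Cd7 at 1.99 lie in the sparse right tail in NOD, and no effector gene passes 1 in either direction in B6.

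At week 4, only Gzma and Nkg7 met the minimum and neither was 2-fold apart between the strains, where the NOD level was 2-fold higher for 2.23% and 2-fold lower for 2.04% of 8863 genes. Under the minimum, Cd7 had a ratio of 0.461 and Prf1 of 2.37 (0.777 to 8.59). Between NOD week 6.5 and B6 week 7, Gzmb and Cd7 passed 2-fold upwards in NOD, by 2.50 and 1.70 on the log2 scale, where 5.91% of 8634 genes were higher and 1.62% lower, with a median log2 difference of 0.277. With libraries rescaled to a common median these differences were 2.39 and 1.53. Gzmb and Cd7 met the minimum only through NOD week 6.5, the library in which they are high, so their count is a description of these libraries. These comparisons share libraries with the NOD age comparison, so they do not add separate support to it.

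The strain comparison set the 2 NOD libraries against the 2 B6 libraries with limma on log2(RPKM + 1), adjusted by the Benjamini-Hochberg method over 12413 genes. Of the 9 effector genes 6 reached an RPKM of 1 in 2 libraries or more and were tested. None was called, where 2.78% of all genes were called higher and 1.59% lower, and 1 of the 6, Nkg7, had an unadjusted limma p under 0.05, as had 12.7% of all genes. The mean RPKM of Nkg7 was 33.1 ± 1.5 for the NOD and 52.2 ± 8.17 for the B6 libraries (SD, n = 2), a log2 difference of -0.633 with a standard error of 0.235 and an adjusted p of 0.303 in limma. Gzma was at 64.9 ± 15.4 against 85.9 ± 0.728 (SD, n = 2), a log2 difference of -0.418 with a standard error of 0.262 and an adjusted p of 0.589 in limma. Gzma and Nkg7 were the 2 tested genes with both NOD values under both B6 values, which held for 18.7% of all genes tested. None of the 6 had both NOD values above both B6 values, where 25.3% of all genes had. Gzmb, Gzmc and Prf1 were under the minimum for this test.

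The Nkg7 difference passed the threshold under some other settings. With libraries rescaled to a common median its log2 difference was -0.734 with a limma adjusted p of 0.0395, where 2.01% of genes were called lower, and with quantile normalization -0.703 with 0.049. Without B6 week 4 it was -0.476 (limma adjusted p = 0.0357) and without B6 week 7 -0.79 (limma adjusted p = 0.0276), while without either NOD library the adjusted p was 1.0. In each of these settings Nkg7 was lower in NOD, and over all alternatives its adjusted p ran from 0.0276 to 1.0. Cd7 was called higher in NOD without NOD week 4 (log2 difference 1.54, limma adjusted p = 0.00159), a fit that rests on NOD week 6.5 alone, and over the other settings its adjusted p ran from 0.132 to 1.0. For an effector gene on its own, the smallest two-sided p that an exact permutation of 2 against 2 libraries can give is 0.333.

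Within a library, the proportions of these genes to each other differed. Gzma exceeded Gzmb per length by 209 times (113 to 436) and 160 times (98.5 to 281) in the B6 libraries and 186 times in the younger NOD library (101 to 388), but by 7.04 times in the older NOD library (6.15 to 8.08). The first 3 intervals overlapped and the last lay apart from them. The ratio of Nkg7 to Gzmb had the same outlying library, at 140, 87.3, 78.5 and 4.46. Gzma to Nkg7 varied less, at 1.49 (1.36 to 1.63), 1.84 (1.69 to 2), 2.36 (2.12 to 2.64) and 1.58 (1.43 to 1.74). Such proportions are free of the depth of a library, since both genes are read from the same one.

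**Figure D3:**
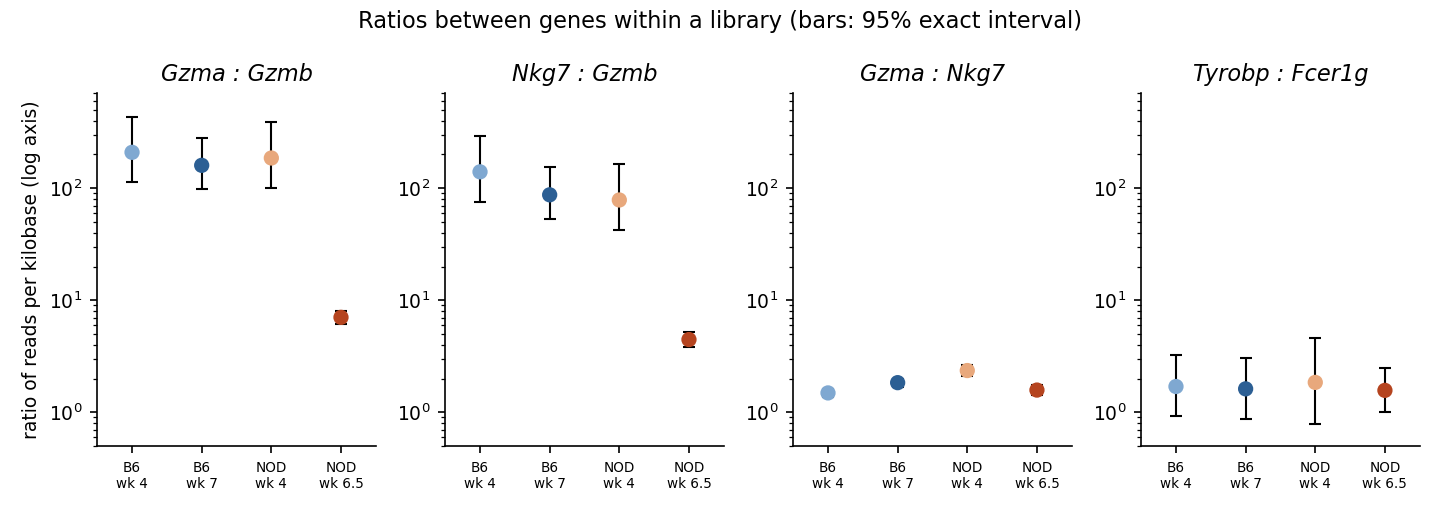
Ratios of reads per kilobase between pairs of effector genes in each library, with 95% exact intervals for counting error, on a shared log axis. Gzma to Gzmb is between 160 and 209 in 3 libraries and 7.04 in NOD week 6.5, while Tyrobp to Fcer1g stays between 1.57 and 1.85.

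Most markers of NK, mast, myeloid and dendritic cells were low in all libraries, with few exceptions. In bulk RNA, fewer cells of a type and less RNA per cell cannot be told apart. Of 19 NK cell markers, 17 had an RPKM under 1 in every library, and Klra1 and Klra8 were listed at 0 in all 4. Their summed RPKM was 5.38, 3.22, 3.81 and 8.26. The higher sum in the last library lay in Cd244 and Cd160: Cd244, a SLAM-family receptor also found on progenitors, was at 1.04, 0.59, 1.11 and 4.44, and Cd160 at 2.63, 1.64, 0.75 and 2.73. The other 17, a split made after the values were seen, summed to 1.71, 0.99, 1.95 and 1.09. In NOD week 6.5, where Gzmb and Cd7 were highest, 9 of the 19 were listed at 0, among them Klrk1 and Klrd1, against 6, 7 and 3 in the other libraries. Ncr1, a receptor of NK cells, was there at 0.08, from 3 reads, and Klrb1c, with up to 24.0% shared reads, was at 0.45 against 0.20 in NOD week 4. Il2rb was at 0.38, 0.2, 0.46 and 0.09 over the libraries. The part of NK cells in the levels of the effector genes was not tested beyond these values.

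Of 16 innate lymphoid markers 13 were under an RPKM of 1 in every library and 4 were at 0 throughout, namely Il22, Il17a, Il13 and Areg. Their sum was 80.8, 72.5, 76.3 and 79.8, held mainly by Il17rb, at 42.12, 39.22, 53.87 and 58.83, and Ltb, at 34.48, 29.06, 18.24 and 15.7. Without Il17rb and Ltb, a split made after the values were seen, the sum was 4.25, 4.17, 4.18 and 5.26. Zbtb16 was at 0.03, 0.06, 0.27 and 0.79, and its ratio between the NOD libraries was 2.9 (1.84 to 4.74). Of 14 mast cell and basophil markers 13 were under 1 throughout and 6 were at 0 in all libraries, including Ms4a2, the beta chain of the IgE receptor that uses Fcer1g. The remaining gene, Cpa3, a carboxypeptidase of mast cells that early progenitors also express, was at 19.44, 18.9, 5.34 and 43.62. Like Cd7, Tyrobp and Fcer1g it was lowest in NOD week 4 and highest in NOD week 6.5. Of 16 myeloid markers 12 were under 1 throughout, with sums of 32.5, 26.4, 31.4 and 25.9, mainly from the lysozyme gene Lyzs at 23.69, 21.3, 25.8 and 21.38. S100a8, at 2.24, 0.12, 0.59 and 0.11, and S100a9, at 1.8, 0.09, 0.12 and 0, were highest in B6 week 4. Of 10 dendritic cell markers 8 were under 1 throughout, with sums of 3.16, 3.89, 3.15 and 1.86. Cd74 was the most abundant of them, at 1.82, 2.46, 2.33 and 1.12. All 10 markers of double negative thymocytes were present in every library, with Il2ra between 422.44 and 531.06, Thy1 between 300.98 and 454.37 and Cd3e between 193.71 and 319.74.

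Receptors that signal through Tyrobp or Fcer1g were low. Of 19 measured, 18 had an RPKM under 1 in every library. The exception was Clec4e (Mincle), a C-type lectin receptor that pairs with Fcer1g, at 0.19, 0.28, 0.21 and 3.43. It was 16.6-fold higher in NOD week 6.5 than in NOD week 4 (8.56 to 36.7, from 208 and 9 reads). It stayed under the minimum of 5 for a call. The other adaptors and kinases were abundant and within 2-fold between the NOD libraries in 11 of 11 genes, with a median log2 difference of -0.058. Over all genes that met the minimum, 0.682% were 2-fold higher and 0.139% were 2-fold lower. Hcst (DAP10), the neighbour of Tyrobp in the genome, was at 11.42, 8.2, 6.16 and 7.9, and the kinase gene Zap70 at 10.31, 4.82, 10.47 and 17.99.

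**Figure D4:**
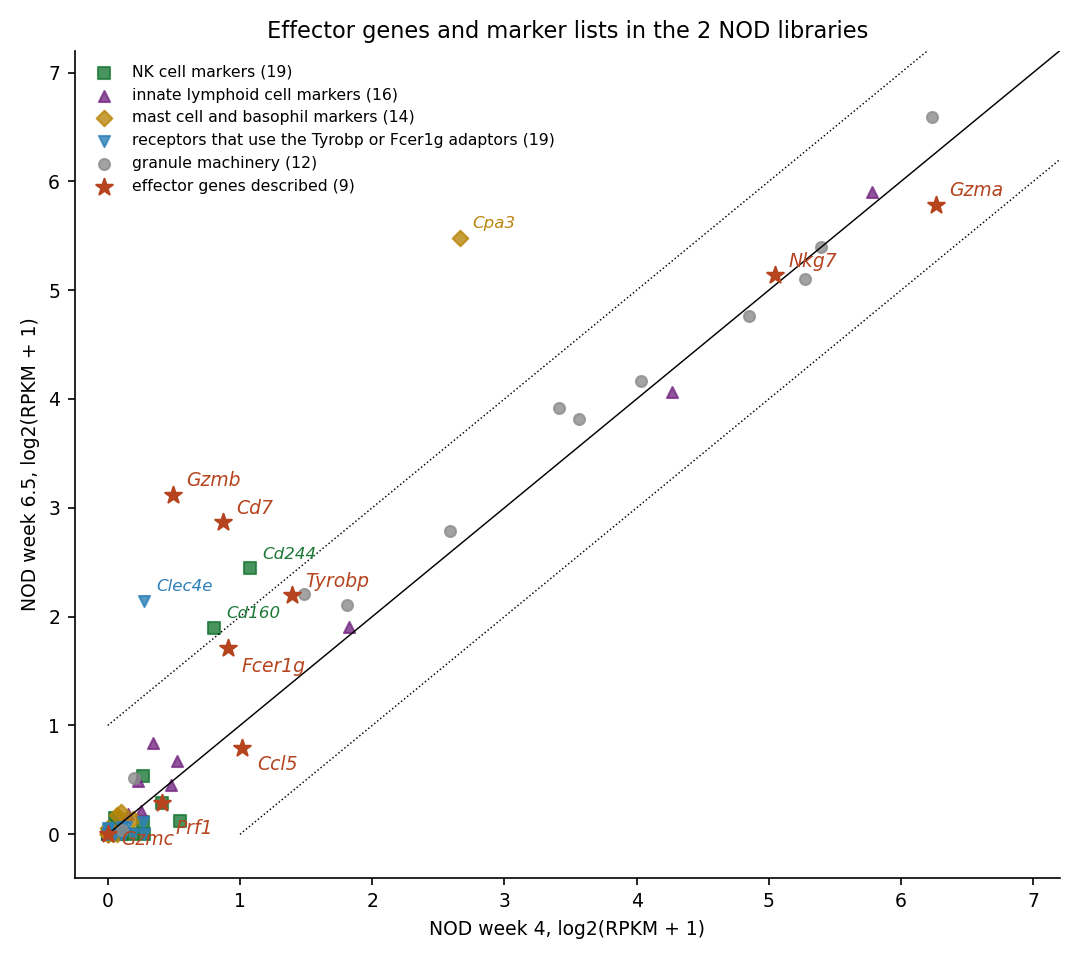
Level in NOD week 6.5 against level in NOD week 4 for the effector genes and 5 lists, as log2(RPKM + 1), with a solid line of equality and dotted lines at 2-fold. Gzmb, Cd7, Cpa3, Clec4e and Cd244 lie above the upper dotted line, as does Cd160, while most NK, mast cell and receptor genes crowd near 0 in both libraries.

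The granule machinery that thymocytes share with killer cells had no gene past the 2-fold call between the NOD ages. Of its 12 genes 8 met the minimum in the NOD age comparison, none was 2-fold apart, and their median log2 difference was 0.164. Over all genes that met this minimum, 0.682% were 2-fold higher and 0.139% were 2-fold lower. Under the minimum, Cst7, a cystatin of killer cells, was at 4.31, 4.59, 1.8 and 3.61, with a ratio between the NOD libraries of 2.01 (1.31 to 3.15), and Serpina3g had a ratio of 2.87 (1.04 to 9.77). Srgn, the proteoglycan that packs granzymes, was at 95.05, 104.64, 74.32 and 95.5, and Ctsw, a cathepsin of killer cells, at 10.06, 7.2, 10.84 and 13.07. Rab27a, which docks secretory granules, was at 53.6 and 42.31 in B6 and at 5.01 and 5.9 in NOD, the only gene of this list called by limma (log2 difference -2.92, adjusted p = 0.000629). Among 10 other effector ligands and cytokines, 8 were under an RPKM of 1 in every library, including Ifng and Fasl. Of 20 measured regulators of effector genes, none of the 9 that met the minimum was 2-fold apart in NOD. Of all genes, 0.682% were 2-fold higher and 0.139% 2-fold lower. Under the minimum, Il2rb had a ratio between the NOD libraries of 0.205 (0.0676 to 0.524) at low levels. That of Il12rb1 was 2.05 (1.64 to 2.59). Tbx21 was at 0.12, 0.02, 0.33 and 0.22 and Eomes at 0, 0, 0.08 and 0.01, while Runx3 was at 12.54, 6.8, 7.36 and 9.68.

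Several genes of early progenitors and of mature T cells were also highest in NOD week 6.5. Of 11 early progenitor genes 9 had a higher and 2 a lower level in NOD week 6.5 than in NOD week 4. The share of all genes with any rise was not computed. Among all genes that met the minimum, the median log2 difference was -0.057. The stem cell factor receptor gene Kit was at 7.62, 4.25, 6.33 and 19.37, and the transcription factor genes Lmo2, Lyl1 and Hhex had ratios of 11.3 (6.46 to 21.6), 9.31 (6.34 to 14.2) and 9.45 (6.06 to 15.5). Bcl11a, at 0.626 (0.477 to 0.822), and Mycn, at 0.797 (0.689 to 0.922), were lower. Of the 11, 7 met the minimum and 6 of these were 2-fold higher, where 0.682% of all genes were. However, Lmo2, Lyl1, Hhex and Mef2c met it only through the library in which they are high, as with Gzmb and Cd7. This list and the others were also chosen with earlier results of these data known, so such counts only describe these libraries. All 10 mature T cell markers had a higher level in NOD week 6.5 than in NOD week 4. However, 5 of them were under an RPKM of 1 in every library and only 3 met the minimum. Klf2 was 12.7-fold higher (8.33 to 20.2), Cd5 5.14-fold (3.31 to 8.33), Cd6 2.45-fold (2.01 to 3) and Cd4 1.90-fold (1.46 to 2.50), and Edg1 (S1pr1), a receptor for egress from the thymus, 11.1-fold from few reads (2.83 to 95.8). For Cd8a and Cd8b1 the intervals held 1, at 2.87 (0.773 to 15.8) and 5.73 (0.768 to 254). Of the 3 that met the minimum, Klf2 and Cd6 passed 2-fold upwards, where 0.682% of all genes did. Klf2 and Cd6 met it only through NOD week 6.5. Mature T cells do not form in Rag1-/- animals, so their markers are not read here as a sign of such cells. Which cells express the progenitor and mature T cell markers, and their part in the levels of Gzmb and Cd7, was not tested. Of 8 gamma-delta T cell markers, 6 met the minimum and 1 was 2-fold higher, where 0.682% of all genes were. This was E430002D04Rik (Cd163l1), at 6.71, 7.11, 12.02 and 68.25. The T cell receptor gamma gene Tcrg was abundant, at 489.6, 565.44, 291.77 and 273.82. At its highest over the libraries, the share of Tcrg reads mapping to more than 1 place was well above 10%. Antigen receptor genes cannot be rearranged in Rag1-/- animals, so these markers are not read here as a sign of gamma-delta T cells.

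The profiles of 2 effector genes spanned more than 2-fold over the libraries on the scale of RPKM + 1, and for each the 3 genes of most similar profile were found among 6503 genes with an RPKM of 5 or more in some library and under 10% of multiply mapped reads. Likeness was the largest deviation, over the 4 libraries, between log2(RPKM + 1) values centred on the mean of each gene. For Gzmb these were Klf2, Cldn2 and Itgb7, with largest deviations of 0.101, 0.155 and 0.226. Itgb7, the integrin beta 7 chain, was at 1.81, 1.54, 1.41 and 18.03, and the claudin gene Cldn2 at 0.60, 0.42, 0.36 and 8.74. For Cd7 they were Kifc3, Hhex and F2r, with 0.278, 0.307 and 0.344. Hhex, a homeobox gene of progenitors, was at 1.69, 0.64, 0.68 and 6.5, and F2r, a thrombin receptor gene, at 3.84, 3.13, 3.36 and 18.66. With 4 libraries, of which NOD week 6.5 sets the pattern, likeness mostly says that a gene is high in that library.

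**Figure D5:**
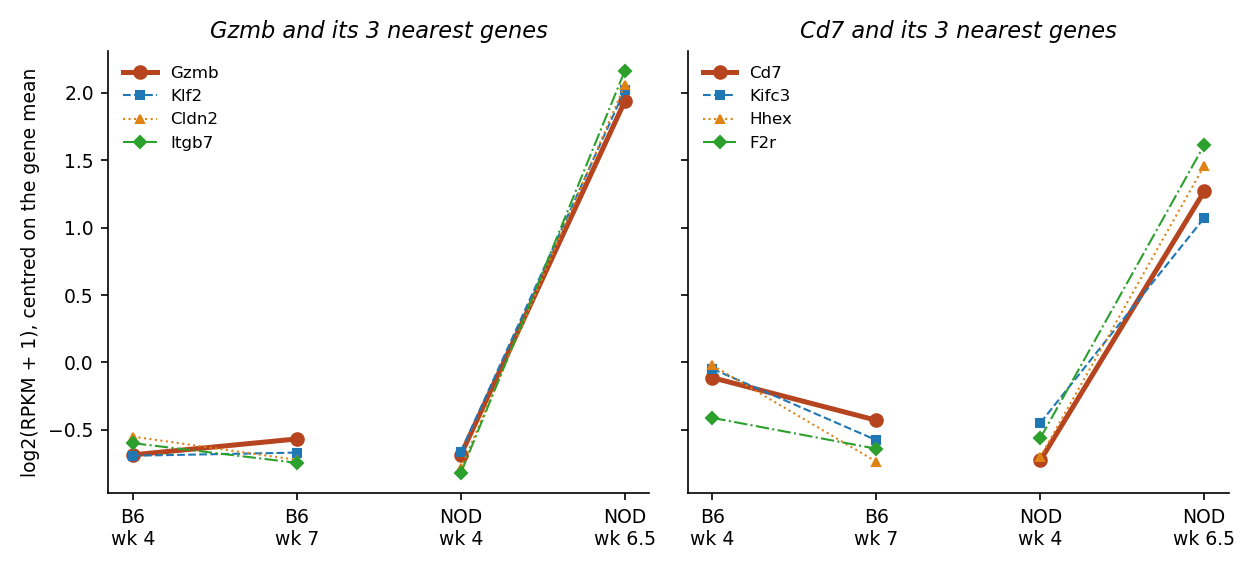
Centred log2(RPKM + 1) of Gzmb (left) and Cd7 (right) with the 3 genes of most similar profile, 1 point per library and lines joining the ages of a strain. Each of the 8 profiles has its highest point in NOD week 6.5, and the Gzmb group lies within 0.226 of it in every library.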

How the data were processed

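Polyadenylated RNA of sorted thymocytes was sequenced in 4 libraries. Per the submitters' processing notes, the authors aligned reads with Bowtie 0.12.1 to mm9. The read length of 32 bases is from the names of the deposited files. The deposited tables give, per the file headers, a gene length, an RPKM value and the fraction of reads that map to more than 1 place. The sources used here do not give the counter, the annotation or any strand handling.

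Depth was recovered as the value at which low RPKM of short genes (at most 0.6 kb) best equal whole reads: 17040000, 21220000, 17260000 and 24090000 reads for B6 (weeks 4 and 7) and NOD (weeks 4 and 6.5), with 97.9% of these values or more within 0.1 reads of a whole number. Read numbers, 95% Poisson intervals and exact (Clopper-Pearson) ratio intervals follow from it and cover counting error only. Comparisons of 2 libraries have no replicate and no test. A 2-fold call uses RPKM + 1 among genes at 5 RPKM or above in either library. Strains were compared with limma 3.58.1 (R 4.3.3; minimum RPKM 1 in 2 or more libraries, intensity trend, 2 residual degrees of freedom), tested on simulated data. Its p-values measure the spread between libraries that also differ in age. Of 238 list entries, 5 were not matched. Genes, lists and the rule for naming genes (effector genes, 2-fold list genes, the 3 most abundant markers, the 3 nearest profiles) were chosen with earlier results of these data known. Not every gene under this rule is named in the text, and some genes outside it are.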

Additional observations from a re-analysis of the deposited data

Results flagged for a closer look

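For 4 effector genes the log2 difference between the ages, as deposited, was positive in NOD and negative in B6. In B6 the counting intervals of Cd7 (0.395 to 1.22), Tyrobp (0.458 to 1.41) and Fcer1g (0.428 to 1.67) held a ratio of 1, so no direction is drawn there. For Nkg7 the B6 interval was 0.725 to 0.883, while the NOD interval, 0.945 to 1.2, held 1. No direction is drawn for Nkg7 in NOD. The difference between the age changes (NOD minus B6, log2 of RPKM + 1) was 2.31 for Cd7, 1.03 for Tyrobp, 0.95 for Fcer1g and 0.404 for Nkg7. Each strain had 1 library per age, so this difference was not tested. With libraries rescaled to a common median the B6 changes of Tyrobp, Fcer1g and Nkg7 were 0.0347, 0.0801 and 0.0492, and that of Cd7 -0.0944. Gzmb had a difference of 2.50 between the age changes, with values above 0 in both strains.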

How the results depend on the processing

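The 2-fold calls of Gzmb and Cd7 between the NOD ages held under each alternative tried (log2 differences of 2.59 to 3.93 and 1.98 to 2.78). Between the B6 ages Gzma, Nkg7, Tyrobp and Fcer1g turned positive with median rescaling (0.35, 0.0492, 0.0347 and 0.0801), and Gzma and Nkg7 with quantile normalization (0.377 and 0.136). Strain differences of 3 genes also changed sign on leaving out a library. Cd7, at 0.541 in the main fit, was at -0.456 without NOD week 6.5 and kept its sign without NOD week 4, at 1.54. Tyrobp and Fcer1g, at -0.0481 and -0.0421 in the main fit, ran from -0.448 to 0.352 and from -0.444 to 0.359. They were lowest without NOD week 6.5 and highest without NOD week 4. Without B6 week 4 they were at 0.0684 and 0.0313. The cause of these moves was not tested. The number of genes limma called between strains was 542, and 122 with no filter on low values (genes at 0 in all libraries left out), 1005 with age class as a block, 191 with genes under 10% shared reads, and from 267 to 3704 on leaving out a library, where the lone library of a strain is assumed to vary like the other strain. Without B6 week 4 it was 3704, without NOD week 4 267 and without NOD week 6.5 270. The 340 genes 2-fold apart between the B6 ages became 518 with a pseudocount of 0.1, 123 with median rescaling, 116 with quantile normalization and 222 with under 10% shared reads. Their share higher at week 7 was 3.53%, and 51.2% and 50.9% with these scalings. The 379 at week 4 became 599 with a minimum RPKM of 1 and 177 with under 10% shared reads, and the 650 at the later age 385 with under 10% shared reads. There, 78.5% were higher in NOD, 57.3% with median rescaling and 56.5% with quantile normalization. Prf1 and Ccl5 had 17 reads or fewer in every library, and their ratios between the NOD libraries have intervals that hold both 1 and a 2-fold difference.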
